A study of Mus musculus with 179 samples.

Results

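Onecut1, Onecut2, Sox9, Sox4, Prox1, Glis3 and Nkx6-1 are transcription factors of the pancreatic duct and of the progenitors that precede it. They were chosen by name, as 7 of the 32100 genes in a table of transcript counts from single cells. Every cell belonged to 1 group: acinar cells, the enzyme-secreting cells of the exocrine pancreas, isolated from wild type C57BL6 mice and grown for 9 days as organoids in Matrigel. RNA was read with Smart-seq3, a plate method that tags each molecule with a unique molecular identifier (UMI), within scNMT-seq, which also reads DNA methylation and accessibility. Each sample was 1 cell, named Acinar and a number. The 7 genes are described over all but 6 of them, called epithelial here. The 6 left out, Acinar5, Acinar6, Acinar44, Acinar105, Acinar182 and Acinar188, were rich in fibroblast transcripts. The labels name neither an animal nor a culture, so cells are not replicates, no test was made, and all intervals (exact, 95%) cover counting error only.

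In the adult pancreas these factors belong mostly to duct cells and, in part, to islets, whereas mature acinar cells carry their own set. Onecut1 and Onecut2 are cut-homeodomain proteins, and Onecut1 is needed for duct and endocrine development. Sox9 maintains pancreatic progenitors and later marks ducts, and ducts that form without Onecut1 or Glis3 become dilated and cystic. Acinar cells that are cultured or injured can lose enzyme expression and take on duct features, a process called acinar-to-ductal metaplasia.

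The epithelial cells held between 3258 and 329522 UMIs, with a median of 165267, and the 23 of them numbered 97 to 120 were shallower, with a median of 42594. The 6 epithelial markers (Epcam, Cdh1, Krt8, Krt18, Cldn7 and Ezr) summed to at least 3920 and at most 24880 counts per 1000000 UMIs (CPM) in the epithelial cells. In the 6 fibroblast-rich cells they summed to between 458 and 3544. Of the 10 fibroblast and stellate markers, the 8 other than Fn1 and Sparc summed to 3.81 CPM over the epithelial cells and 6248 over the fibroblast-rich ones. Fn1 stood at 162.6 CPM and Sparc at 57.4 in the epithelial cells.

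Onecut2 was by far the most abundant of the 7 by UMIs. It had 23110 UMIs, or 864 CPM (853 to 875), and 99.6% of the 29943 genes with a UMI were at or below it. Per cell it ran from 0 to 2874 CPM around a median of 808, with quartiles of 537 and 1115. As the plot of levels per cell shows, most cells lay within a few-fold of the median and a few lay far below it. Acinar173 had no UMI of Onecut2 among 102448 and Acinar179 had none among 21749. Acinar52, with 5.56 CPM, came next, then Acinar175 with 11.5 and Acinar22 with 13.5. Mitochondrial UMIs made up 4.14% in Acinar173 and 8.63% in Acinar179, against a median of 1.02% over the epithelial cells. They made up 0.216% in Acinar52, 1.49% in Acinar175 and 0.615% in Acinar22. The keratin Krt7 stood at 820 CPM in Acinar173, 5619 in Acinar175 and 217 in Acinar52, which also had the lowest epithelial marker sum, 3920 CPM, and 292225 CPM of acinar enzymes. The highest cells were Acinar169 with 2874 CPM, Acinar36 with 2523 and Acinar130 with 2501.

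**Figure D1:**
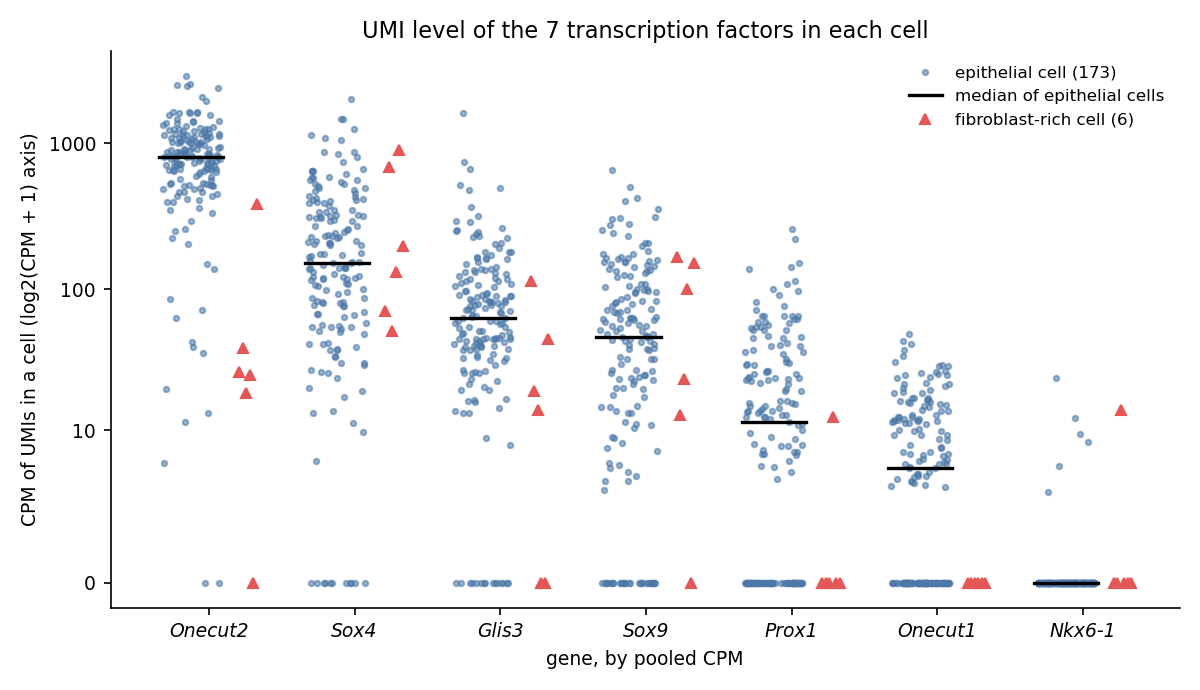
Level of each of the 7 genes in single cells, in CPM of UMIs on a log2(CPM + 1) axis. Circles are the epithelial cells, bars their medians and triangles the 6 fibroblast-rich cells. Onecut2 sits around 808 CPM in most epithelial cells, Sox4, Glis3 and Sox9 spread widely, and Nkx6-1 is at 0 in all but 6 of them.

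Onecut1, the paralogue best known from pancreas development, was scarce. It had 240 UMIs in 100 cells, or 8.97 CPM (7.87 to 10.2), with a median of 5.05 CPM per cell and a highest value of 48.5 that rested on 1 UMI in the shallow Acinar112. Levels of different genes were also compared as reads per kilobase of exon per 1000000 reads (RPKM), because long transcripts can collect more reads. UMIs count molecules, and whether length acts on these counts was not tested. Reads per UMI were 2.26 for Onecut2, with 16234 exonic bases, and 1.83 for Onecut1, with 4113. By RPKM Onecut2 stood at 51.9 and Onecut1 at 1.72, a ratio of 30.1, whereas the UMI ratio was 96.3. Per length Onecut2 was above Onecut1 in all but 4 cells, equal in 1 and below in 3. Onecut3, the third paralogue and not among the 7, had 9.01 RPKM and 49.1 CPM, with a UMI in 85% of cells. It was thus above Onecut1 as well. An annotated non-coding transcript on the same strand, Gm20649, overlaps 2171 bases of the 4113 exonic bases of Onecut1. It had 6 UMIs, and how reads in the overlap were assigned was not given in the sources used here, so the Onecut1 count is uncertain.

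Sox4, an HMG-box factor active in endocrine progenitors and in many injured or growing epithelia, followed Onecut2. It had 264 CPM (258 to 270) and ranged from 0 in 11 cells to 2007 CPM in Acinar16, with a median of 152.2 and quartiles of 56.6 and 349. Sox4 thus differed more from cell to cell than Onecut2, and its lower and upper quartiles were far apart. Per length Sox4 stood at 41.7 RPKM against 51.9 for Onecut2, a ratio of 1.24, whereas the UMI ratio was 3.27. Per length Sox4 was above Onecut2 in 54 cells, equal in 1 and below in the others. By UMIs it was above in 19, equal in 1 and below in the others. How many cells had Sox4 above Onecut2 thus depended on the scale. The exons of Sox4 share 2616 bases with the antisense transcript Gm26735, which has no row in the table, and whether counting used strand was not given.

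Sox9, the duct and progenitor factor, had 80.7 CPM (77.3 to 84.1). Per cell it ran from 0 in 29 cells to 658 CPM in Acinar43, with a median of 46.6 and quartiles of 11 and 102.5. Glis3, a zinc finger protein whose loss causes neonatal diabetes and cystic kidneys, had 106.8 CPM (102.97 to 110.8), from 0 in 15 cells to 1607, with a median of 62.9. Acinar124 alone held 292 UMIs of Glis3, or 10.2% of the total, and the next cell, Acinar17, reached 740 CPM. Without Acinar124 the pooled level was 96.6 CPM. Glis3 exceeded Sox9 by UMIs, being equal to it in 19 cells, below in 52 and above in the others. Per length, however, Sox9 stood at 15.1 RPKM and Glis3 at 11.4. On that scale Sox9 was above Glis3 in 89 cells, equal in 9 and below in 75. Their order therefore depends on the scale and was not resolved.

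Prox1, a homeobox factor of hepatic and pancreatic progenitors that also specifies lymphatic endothelium, had 24.4 CPM (22.5 to 26.3), a median of 11.4 and quartiles of 0 and 31.2. It was at 0 in 65 cells. Its highest value, 260 CPM in Acinar110, came from 2 UMIs among 7699, and Acinar172 had 220 CPM from 20 UMIs. The lymphatic endothelial markers Lyve1, Pdpn and Flt4 summed to 8.37 CPM over the epithelial cells. Per length Prox1 stood at 2.55 RPKM and Onecut1 at 1.72, with Prox1 above in 78 cells, equal in 28 and below in 67. The antisense gene Prox1os shares a short exonic stretch with Prox1 and had 12 UMIs.

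Nkx6-1, a homeobox factor of beta cells and early pancreatic progenitors, was close to absent. It had 7 UMIs in 6 epithelial cells, or 0.262 CPM (0.105 to 0.539). Acinar2 held 2 of them and Acinar14, Acinar16, Acinar50, Acinar101 and Acinar156 held 1 each. The fibroblast-rich Acinar44 had 3 UMIs, so no epithelial pattern can be read from this gene.

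In the annotation of GRCm38 these genes lie apart from each other. Onecut1 spans chr9:74861921-74891781 on the plus strand and Sox9 chr11:112782224-112787760 on the plus strand. Sox4 spans chr13:28948919-28953713, Prox1 chr1:190118035-190170714, Glis3 chr19:28258851-28680077 and Nkx6-1 chr5:101658139-101664996, all on the minus strand.

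Most of the other genes of these families were low. Of 18 other Onecut, Sox, Glis, Prox and Nkx6 genes with a row, 16 were under 10 CPM, as were 67.96% of all genes with a row, and 1, Sox18, had no UMI. Glis2, a relative of Glis3 linked to kidney ciliopathy, stood highest with 58.8 CPM and a UMI in 90.2% of cells, and Onecut3 followed. Sox13 had 8.48 CPM. Sox11 had 7.81 CPM from only 27 cells and reached 587 CPM in Acinar16, the cell that was also highest in Sox4.

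Because deep cells show more genes, detection was compared after thinning every cell to 40000 UMIs, which left out 18 epithelial cells and kept all 6 fibroblast-rich ones. Before thinning their median depths were 171929 and 169027 UMIs. Onecut2 was detected in 98.7% of thinned epithelial cells (95.4 to 99.8%) and 98.8% of unthinned ones. Sox4 was detected in 92.3% (86.9 to 95.9%), against 93.6% unthinned, and Glis3 in 86.5% (80.04 to 91.4%), against 91.3%. These 3 factors were thus found in most cells at either depth. Sox9 was detected in 72.9% (65.2 to 79.7%), against 83.2% unthinned. Prox1 was detected in 45.8% (37.8 to 53.99%), against 62.4%, and Onecut1 in 25.8% (19.1 to 33.4%), against 57.8%. For these less abundant genes the share moved with depth, and a cell without a UMI was not shown to lack the transcript. Nkx6-1 was detected in 1.94% (0.401 to 5.55%), against 3.47% unthinned.

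In the fibroblast-rich cells at the same depth, Onecut2 was detected in 3 of 6, Sox9 in 4, Sox4 in 6 and Glis3 in 2. Onecut1, Prox1 and Nkx6-1 were detected in 0 of 6, which by a limit of 3 counts allows a share of up to 50%. Onecut2 stood at 26.3, 38.7, 18.8, 25.04, 0 and 381 CPM in Acinar5, Acinar6, Acinar44, Acinar105, Acinar182 and Acinar188. All 6 were thus below the lower quartile of the epithelial cells, 537, and Acinar188 was the highest of them. Sox4 stood at 70.2, 684, 51.6, 131.5, 905 and 196 CPM in the same cells, within the epithelial range. The Sox9 values were 166.6, 12.9, 23.4, 100.2, 0 and 151.4 CPM, also within it. By Sox4 and Sox9 these cells therefore overlapped the epithelial ones, and by Onecut2 they lay among the lower epithelial cells.

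**Figure D2:**
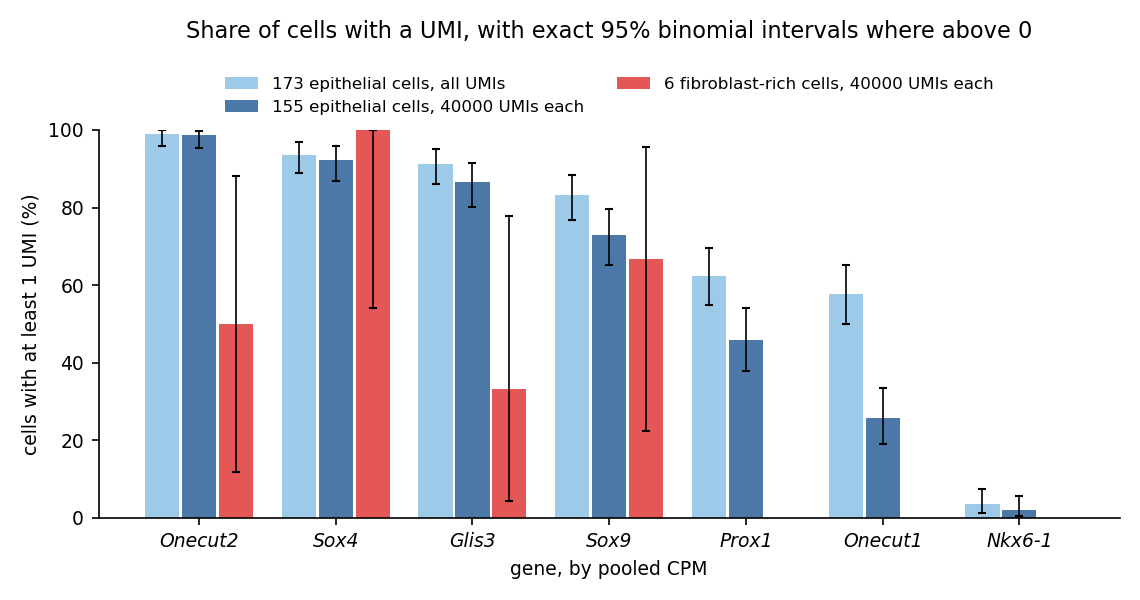
Share of cells with at least 1 UMI of each gene, in percent, with exact 95% binomial intervals where it is above 0. Light bars are the epithelial cells with all their UMIs, dark bars those thinned to 40000 UMIs, and red bars the 6 fibroblast-rich cells thinned alike. Thinning lowers Onecut1 from 57.8% to 25.8% and leaves Onecut2 at 98.7%.

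Most cells carried several of the factors at once. At 40000 UMIs, 2 cells had a UMI of 1 of the 7 genes, 9 of 2, 21 of 3, 56 of 4, 52 of 5 and 15 of 6, and no cell had all 7 or 0. Of Sox9 and Glis3, 8 cells had Sox9 alone, 29 had Glis3 alone and 13 had neither. Glis3 was thus found in 92.9% of cells with Sox9 and 69.05% of cells without it. Onecut2 was found in all 40 cells with Onecut1 and in 98.3% of cells without it.

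The factors differed in how evenly they were spread over cells. Against genes of like abundance, the variation of Glis3 beyond counting noise was 17.5 times the typical value, at percentile 96.3 of 13106 genes. Sox4 was at 9.67 times (percentile 93.8) and Sox9 at 8.25 times (percentile 92.7). Prox1 was at 4.63 times (percentile 87.1), Onecut2 at 2.77 times (percentile 79.02) and Onecut1 at 0.560 times (percentile 25.5). Every one of these but Onecut1 was thus more uneven than most genes of its level. Without Acinar124 Glis3 was at 7.92 times (percentile 92.3), and without the cell highest in each, Sox4 was at 8.20 times and Sox9 at 7.59, so the lead of Glis3 rested on that 1 cell. For Sox9, 23 cells held 50% of the UMIs, for Glis3 23 cells and for Sox4 27 cells, whereas for Onecut2 it took 46.

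Sox9, Sox4 and Glis3 varied together over cells, and pairs with Onecut2 or Prox1 had lower values. Spearman's rho was computed over the thinned epithelial cells for the 5 genes that averaged 0.5 UMI or more, so Onecut1 and Nkx6-1 were left out. It is a description without a p-value, since the cells share 1 group and 1 depth. Sox9 and Glis3 had a rho of 0.47, Sox4 and Glis3 0.41, and Sox9 and Sox4 0.40. These 3 of 10 pairs were at least 0.3 in size, against 1.7% of all pairs among the 7220 genes that averaged 1 UMI or more. Within 8 blocks of 24 title numbers, rho was above 0 in 8 of 8 for each of the 3 pairs. It ranged from 0.23 to 0.81 for Sox9 and Glis3, from 0.34 to 0.69 for Sox4 and Glis3 and from 0.15 to 0.74 for Sox9 and Sox4. In another random thinning to the same depth all 3 values were lower. Sox4 and Glis3 had a rho of 0.26, below 0.3, Sox9 and Glis3 0.39, and Sox9 and Sox4 0.33.

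The other pairs were weaker. Onecut2 had a rho of 0.22 with Glis3, 0.21 with Prox1, 0.16 with Sox4 and 0.05 with Sox9. Prox1 had a rho of 0.16 with Sox9, 0.15 with Glis3 and -0.01 with Sox4. The Prox1 and Glis3 value was 0.31 in another random thinning to the same depth and 0.39 on CPM of unthinned cells, so it was not settled. The thinned UMIs of each factor were also set against traits of the same cells before thinning. With a cell's total UMIs rho lay between -0.07 for Onecut2 and 0.01 for Prox1. With the mitochondrial share rho was 0.05 for Onecut2, 0.19 for Prox1, 0.23 for Sox9, 0.27 for Sox4 and 0.28 for Glis3. With the number of genes detected it was -0.02 for Onecut2, 0.05 for Prox1, 0.13 for Glis3 and 0.16 for both Sox9 and Sox4. Sox9, Sox4 and Glis3 thus had the highest values with both traits. Whether these traits bear on their shared variation was not tested.

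**Figure D3:**
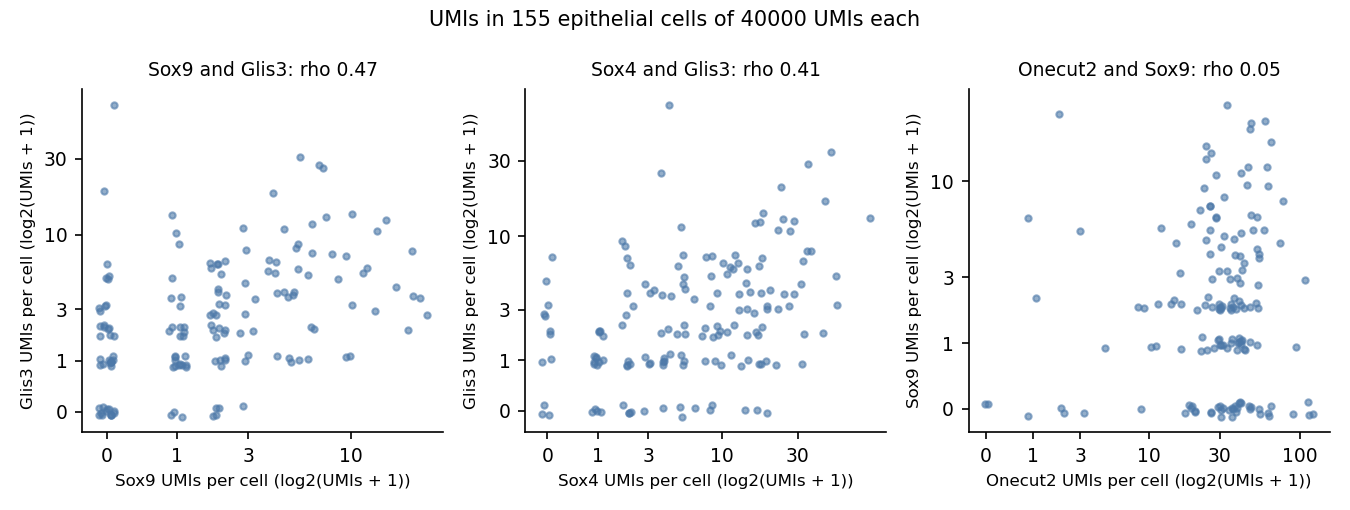
UMIs of 3 pairs of genes in the epithelial cells thinned to 40000 UMIs each, on log2(UMIs + 1) axes with a small random shift so that points do not hide each other. Glis3 rises with Sox9 (rho 0.47) and with Sox4 (rho 0.41), whereas Sox9 shows little relation to Onecut2 (rho 0.05).

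**Figure D4:**
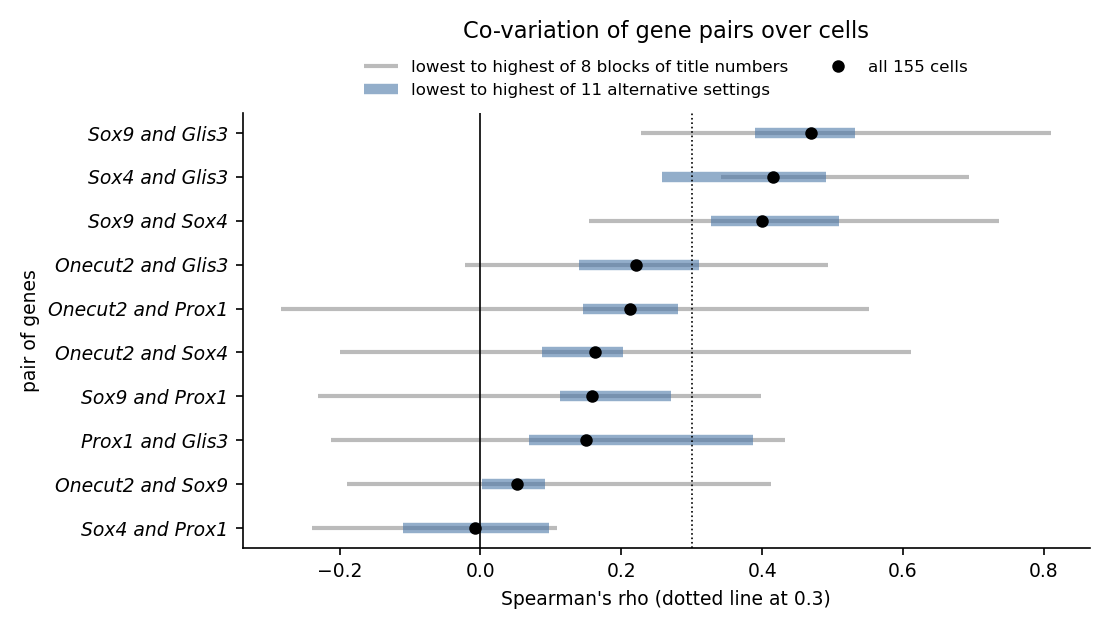
Spearman's rho of the 10 gene pairs on the horizontal axis. Points are all thinned cells, thick bars the lowest to highest of 11 alternative settings and thin bars the lowest to highest of 8 blocks of title numbers. The blocks of Sox9 and Glis3 lie between 0.23 and 0.81, and those of Sox4 and Prox1 lie between -0.24 and 0.11.

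The promoters of Sox4 and Glis3, which varied together, are shown because the table used holds both. They are the 250 bases before a transcription start given by RefSeq on GRCm38.p6, for 5 of the 7 members. RefSeq starts can differ from the gene spans given above, which came from GENCODE. The Nkx6-1 window and a window of Prox1 lie inside those spans, and the Sox4 window overlaps the end of its span. Motif matches are in capitals. The motifs searched on either strand were ATCAAT (ONECUT), AACAAT (SOX), GGAATG (TEAD) and TGGGAA (RBPJ).
Sox4, chr13:28953700-28953949, minus strand: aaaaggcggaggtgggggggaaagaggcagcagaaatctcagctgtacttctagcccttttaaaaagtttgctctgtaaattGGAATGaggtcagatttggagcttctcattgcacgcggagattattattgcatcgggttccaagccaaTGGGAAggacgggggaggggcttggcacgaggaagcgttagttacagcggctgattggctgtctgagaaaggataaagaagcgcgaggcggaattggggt
Glis3, chr19:28680078-28680327, minus strand: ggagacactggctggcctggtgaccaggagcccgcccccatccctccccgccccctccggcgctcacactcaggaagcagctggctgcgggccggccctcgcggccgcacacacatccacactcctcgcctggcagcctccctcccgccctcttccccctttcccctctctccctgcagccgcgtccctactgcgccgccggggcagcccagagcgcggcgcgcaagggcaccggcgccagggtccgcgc
The Sox4 window holds 1 GGAATG and, nearer to the start, 1 TGGGAA. The Glis3 window holds none of the 4 motifs, nor do the windows of Onecut1 and Nkx6-1. Prox1 has 2 windows, and 1 of them holds TGGGAA on the opposite strand. Over all 32851 promoter windows searched, 12.6% held GGAATG, 21.6% TGGGAA, 9.42% AACAAT and 6.72% ATCAAT.

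The list of duct cilium and cyst disease genes followed Sox9, Sox4 and above all Glis3 as a sum, but its genes did not all do so. The summed UMIs of the 10 genes of this list had a rho of 0.57 with Glis3, 0.44 with Sox4 and Sox9, 0.35 with Onecut2 and 0.28 with Prox1. Of all genes, 3.35% reached 0.3 in size with Glis3. Bicc1, an RNA-binding protein mutated in cystic kidneys, had a rho of 0.47 with it and Pkhd1, the fibrocystin gene, 0.46. Ift88 and Kif3a, which build the cilium, had -0.02 and 0.09 with Glis3, and -0.15 and 0.16 with Sox9. With Sox9, 2 of the 6 genes of the list with enough UMIs reached 0.3, Bicc1 at 0.37 and Pkhd1 at 0.34, against 3.92% of all genes. With Sox4, 2 of 6 reached it, Pkd2 (polycystin 2) at 0.36 and Pkhd1 at 0.30, against 12.9% of all genes. Pkhd1 stood at 101.1 CPM with a UMI in 93.6% of cells, and Bicc1 at 411 CPM in 96%. Bicc1 thus made up most of the 761 CPM of the list.

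The list of genes tied to YAP, a growth regulator that responds to cell shape and stiffness, was also higher in cells with more Sox4, Glis3 and Sox9. The summed list had a rho of 0.43 with Sox4, 0.39 with Glis3, 0.37 with Sox9, 0.08 with Prox1 and -0.03 with Onecut2. Of 6 genes with enough UMIs, 3 reached 0.3 with Sox4 (Ankrd1, Ccn2 and Tead1), against 12.9% of all genes. Tead1 also belongs to the list of transcription factors described next. With Sox9 and with Glis3, 2 reached it (Ankrd1 and Ccn2 in each), against 3.92% and 3.35%. With Onecut2 0 of 6 did, which is near its 1.8% over all genes. Ankrd1 stood at 981 CPM, with a rho of 0.41 with Sox4, 0.41 with Glis3 and 0.33 with Sox9.

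Onecut2 instead followed the list of other pancreas and duct transcription factors, with a rho of 0.46, against 0.28 for Glis3, 0.27 for Sox4, 0.20 for Sox9 and 0.16 for Prox1. Of 12 such factors with enough UMIs, 3 reached 0.3 with Onecut2, with a median of 0.17, against 1.8% of all genes and a median of 0.02. They were Klf5 at 0.45, Ehf at 0.39, both factors of simple epithelia, and Hes1, a Notch target, at 0.31. Ehf was the most abundant of the list at 319 CPM, before Tead1 with 159.4, Hnf4a with 158.2 and Hes1 with 156.1. Neurog3, the switch to endocrine fate, had no UMI.

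The duct gene list did not move as a block with the factors. Its sum had a rho of 0.31 with Onecut2. This value was 0.11 in cells numbered up to 96 and 0.47 in those from 97. With Sox9, Sox4, Glis3 and Prox1 the sum had a rho of -0.09, 0.05, -0.06 and -0.20. These sums were mostly keratin: Krt7, Krt8, Krt18 and Krt19 gave 13815 of the 19599 CPM. Without these 4, the list had a rho of 0.46 with Onecut2, 0.41 with Prox1, 0.29 with Sox9, 0.24 with Glis3 and 0.11 with Sox4, a split made after the values were seen. Of 14 single genes with enough UMIs, 5 reached 0.3 with Sox9 (Epcam, Spp1, Slc4a4, Cldn4 and Prom1) and 1, Krt19, reached -0.3, against 3.92% of all genes. With Glis3, 4 reached 0.3 (Epcam, Slc4a4, Cldn4 and Spp1) and 0 reached -0.3, against 3.35%. Sox4 reached 0.3 with 4 (Cldn4, Slc4a4, Epcam and Spp1) and -0.3 with 4 (Ambp, Muc1, Car2 and Tspan8), against 12.9% of all genes. Cldn4, a tight junction claudin, had a rho of 0.61 with Sox4, and Ambp, a secreted protease inhibitor, -0.54. The keratins were all below 0 with Prox1: Krt7 had a rho of -0.42, Krt19 -0.33, Krt8 -0.29 and Krt18 -0.21. With Sox9 they differed, at -0.38 for Krt19, -0.24 for Krt7, -0.08 for Krt8 and 0.07 for Krt18. With Sox4 they ran from -0.26 for Krt19 to 0.20 for Krt18. Prom1, the apical membrane protein prominin, reached 0.49 with Onecut2, 0.37 with Prox1 and 0.30 with Sox9.

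Of 13 acinar enzyme genes with enough UMIs, 0 reached 0.3 in size with any of the 5 factors, which for all but Sox4 is near the share over all genes (1.8% for Onecut2, 3.92% for Sox9, 3.35% for Glis3, 0.789% for Prox1 and 12.9% for Sox4). Their values were small and mostly below 0: 0 of 13 were above 0 with Prox1, 1 with Onecut2, 2 with Sox9, 2 with Glis3 and 5 with Sox4. Some were found in few cells: 1 had a UMI in 8.67% of the epithelial cells and another in 16.2%. Where most cells share a count of 0, rho has little room to reach 0.3. That 0 of 13 reached it thus says little about these genes. The 4 cells with the most enzyme UMIs differed from each other in these factors. Onecut2 stood at 5.56 CPM in Acinar52, 20.1 in Acinar55, 62.8 in Acinar98 and 634 in Acinar155, so 3 of the 4 were among the 10 lowest epithelial cells and Acinar155 was not. Prox1 was at 0 in all 4 and Glis3 in 3, Acinar155 having 13.9 CPM. Sox4 stood at 116.8 CPM in Acinar52, 55.2 in Acinar55, 0 in Acinar98 and 202 in Acinar155, above the epithelial median in the last. Acinar52 also carried 16.7 CPM of Onecut1, and the other 3 had none.

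Genes of cell division tended to be lower where Sox4 and Onecut2 were higher. All 13 S phase genes had a rho below 0 with Sox4, and the median was -0.29, against a median of 0.02 over all genes. Of them, 4 were at -0.3 or lower, against 4.77% of all genes. With Onecut2 the median was -0.24, and 1 of 13 passed -0.3, against 0.416% of all genes. For the 16 G2/M genes with enough UMIs the medians were -0.25 with Sox4 and -0.21 with Onecut2, with 2 and 1 genes past -0.3. By their medians both lists were weaker with Sox9, Glis3 and Prox1, where these ran from -0.05 to -0.15. No gene passed -0.3 with these factors. That is near the share over all genes, 0.997% for Sox9, 0.540% for Glis3 and 0.166% for Prox1. Of the Notch list, only 3 genes had enough UMIs. Of these 1, Hes1, reached 0.3 with Onecut2, against 1.8% of all genes, and it was already counted among the transcription factors. The summed Notch list had a rho of 0.34 with Onecut2, 0.22 with Sox9, 0.20 with Sox4, 0.20 with Glis3 and 0.12 with Prox1.

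Sox4 also followed the fibroblast and stellate list, with a rho of 0.67, against 0.45 for Sox9, 0.40 for Glis3, 0.14 for Onecut2 and 0.05 for Prox1. In the epithelial cells this list was almost wholly Fn1, with a rho of 0.63 with Sox4, and Sparc, with 0.41. The other 8 genes averaged 0.213 UMI per thinned cell in all, too few for a rho. The fibroblast collagens were near 0 in these cells: Col1a1 and Col1a2 had 24 UMIs each, Col3a1 had 15 and Dcn had none. The value thus rested on Fn1, the matrix protein fibronectin, and Sparc, a matrix-binding glycoprotein.

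**Figure D5:**
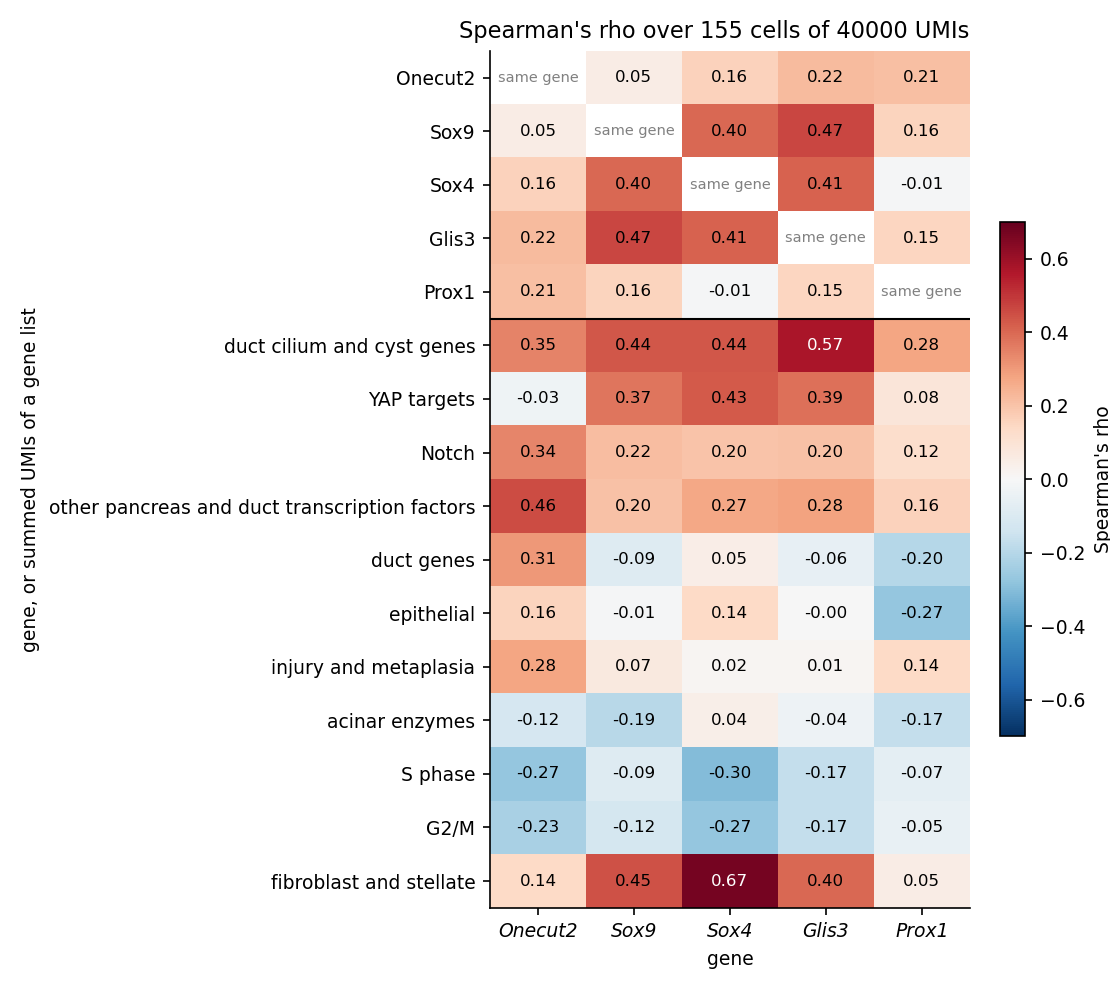
Spearman's rho over the thinned epithelial cells between each of 5 genes (columns) and the other genes or the summed UMIs of gene lists (rows). Red is positive and blue negative. Sox9, Sox4 and Glis3 share high values with the cilium and cyst list and the YAP list, and Onecut2 has its highest value, 0.46, with the other transcription factors.

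Among the genes most alike Sox4 over cells were Arl4c, a small GTPase, with a rho of 0.67, the uncharacterised transcript 2610307P16Rik with 0.63, the matrix gene Fbln2 with 0.63 and Fn1 with 0.63. At the other end were Fabp5, a fatty acid binding protein, with -0.66, Sult1c2, a sulfotransferase, with -0.64 and Gstp1, a glutathione transferase, with -0.64. In all 585 genes were at 0.3 or more with Sox4 and 344 at -0.3 or less, the most of the 5 factors. Sox9 was most like Igfbp7, a secreted growth factor binding protein (0.59), Cald1, an actin regulator (0.57), Cp, the copper oxidase ceruloplasmin (0.52), C3, a complement protein (0.51), and Tmem176b (0.51). Lowest with Sox9 were Gcnt3, a mucin glycan enzyme (-0.48), Phgr1 (-0.47) and Mcu, the mitochondrial calcium channel (-0.46). Igfbp7 and Cald1 were also high with Sox4, at 0.62 each. Igfbp7 had a median of 4152 CPM in the fibroblast-rich cells against 293 in the epithelial ones.

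Glis3 was most like Scara3 (0.48), Palmd (0.48), Bicc1 (0.47), Sox9 (0.47) and Cd44, a hyaluronan receptor (0.47). Cd44 belongs to the injury and metaplasia list, which did not follow Glis3. Of its 11 genes with enough UMIs, 1 reached 0.3 with Glis3, against 3.35% of all genes. Only 5 were above 0, and the median was -0.13. Lowest with Glis3 were Fkbp5, a glucocorticoid-induced gene (-0.40), Mgst3, a glutathione transferase (-0.40), and Phgr1 (-0.39). Sox9, Sox4 and Glis3 shared many such genes: 95 were at 0.3 or more with all 3, out of 211 for Sox9, 585 for Sox4 and 203 for Glis3. These counts are not independent, because the 3 factors vary together.

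Onecut2 was most like Gabrp, a GABA receptor subunit of secretory epithelia (0.49), Prom1 (0.49), Chd9, a chromatin remodeller (0.47), Rtn4rl1, a Nogo receptor relative (0.47), and Ctnnb1, the beta-catenin gene (0.47). Lowest were Clspn, a replication checkpoint gene (-0.37), Rpia, an enzyme of the pentose phosphate pathway (-0.37), and Nsl1, a kinetochore gene (-0.36). Of the 100 genes at 0.3 or more with Onecut2, 11 were so with Sox9, 20 with Sox4, 15 with Glis3 and 6 with Prox1. Prox1 was most like Tmem176a (0.45), Pld1, a phospholipase (0.43), Depp1 (0.42), Slc28a3, a nucleoside transporter (0.41), and Cp (0.40). Lowest with Prox1 were Myo1c, a myosin (-0.45), Krt7 (-0.42) and S100a14 (-0.38). Only 0.789% of genes reached 0.3 in size with Prox1, the fewest of the 5 factors. The exact leaders moved with the setting: thinned to 80000 UMIs, with fewer cells and 9680 candidate genes, 4 of the 5 leading genes were kept for Sox9, 2 for Sox4, 1 for Onecut2 and 0 for Prox1 and Glis3.

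Levels also differed between the 8 blocks of 24 title numbers, for which the labels give no meaning. Onecut2 ran from 658 CPM in cells 1 to 24 to 1010 in cells 25 to 48. Sox4 ran from 148.03 in the shallow cells 97 to 120 to 301 in cells 73 to 96. Sox9 ran from 49.4 to 103.2 CPM, Glis3 from 78.2 to 166.1, Prox1 from 16.8 to 34.7 and Onecut1 from 6.31 to 10.7. The highest block was thus between 1.54 times the lowest, for Onecut2, and 2.12 times, for Glis3, and Acinar124 lies in the highest Glis3 block.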

How the data were processed

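The authors deposited UMI counts and read counts as 2 tables of raw whole numbers, without normalization, for 32100 Ensembl genes in every cell. STAR, featureCounts, GRCm38 and mm10 are named per the submitters' processing notes, without versions. How UMIs were collapsed, which reads were counted and whether strand was used was not given in the sources used here. Symbols were found for 31985 genes. Positions and exon lengths came from GENCODE on GRCm38. No doublet caller was run, since each sample is 1 cell per the labels.

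Levels are CPM of UMIs pooled over cells with exact Poisson intervals, and shares have exact (Clopper-Pearson) binomial intervals, each at 95%. Where none was found, 3 counts were allowed for. Cells were thinned without replacement to 40000 UMIs for shares and for Spearman's rho. Excess variation is the squared coefficient of variation of UMIs less its Poisson part, divided by the running median over 100 genes of similar abundance, among genes averaging 0.5 UMI or more. The scripts for rho and variation were tested on simulated data.

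Genes named are the 7 factors, the 4 highest other family genes, the 4 highest of each list and any with no UMI where the list is described, and, for each factor averaging 0.5 UMI or more, the 5 genes of highest and the 3 of lowest rho. Of the genes these rules give, 2 are not reported here. List genes named for passing 0.3 in size were chosen after their values were seen. The members and the lists were chosen with earlier results of these data known. No test was made, because all cells form 1 group. Alternatives covered reads, other cells, other thinning and detection rules, and size factors of scran. The scripts ran in R 4.3.3 (scran 1.30.0) and Python 3.11.15 (pandas 2.3.3, numpy 2.4.6, matplotlib 3.10.9, scipy 1.17.1).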

Additional observations from a re-analysis of the deposited data

How the results depend on the processing

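The order of the factors and the side of 0.3 on which a pair lay held under most settings tried, and shares moved with depth. No paired analysis was possible because all cells form 1 group with no test. By reads in place of UMIs the pooled levels per 1000000 were 7.09 for Onecut1, 842 for Onecut2, 62.3 for Sox9, 200.04 for Sox4, 21.4 for Prox1 and 100.7 for Glis3, and per kilobase Sox9 came 3 and Glis3 4 in the order of levels. In cells numbered up to 96 Onecut2 stood at 843 CPM, Sox4 at 282 and Glis3 at 95.8, and from 97 at 893, 239.6 and 122.4. With the fibroblast-rich cells included Onecut2 stood at 834 CPM. Without Acinar124 Glis3 stood at 96.6.

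Thinned to 20000 UMIs, the shares were 14.1% for Onecut1, 57.7% for Sox9, 81.6% for Sox4, 32.5% for Prox1 and 66.9% for Glis3. Thinned to 80000 UMIs, they were 44.5% for Onecut1, 98.5% for Sox4, 55.5% for Prox1 and 96.4% for Glis3. Without thinning, Onecut1 was at 57.8%, Sox9 at 83.2% and Prox1 at 62.4%. With 2 UMIs asked for, the shares were 5.16% for Onecut1, 54.8% for Sox9, 81.9% for Sox4, 23.2% for Prox1, 63.2% for Glis3 and 0% for Nkx6-1.

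Of the 10 pairs, rho crossed 0.3 in 4 cases: 0.26 for Sox4 and Glis3 and 0.31 for Prox1 and Glis3 in another random thinning, 0.39 for Prox1 and Glis3 on CPM of unthinned cells, and 0.31 for Onecut2 and Glis3 in cells numbered up to 96. The cause was not tested. Of the 5 genes most alike each factor, those still among its 5 highest numbered 1 for Onecut2, 2 for Sox4, 0 for Prox1 and 0 for Glis3 at 80000 UMIs, and 1 for Onecut2, 3 for Prox1 and 2 for Glis3 by Pearson's r of log2(UMIs + 1). Excess variation percentiles moved by less than 5 under every setting run for them, but the value of Glis3 fell from 17.5 to 7.92 times the typical one without Acinar124.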
